A study of Mus musculus with 8 samples.

Results

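Chemokines, the secreted proteins that direct the movement of leukocytes, and their receptors were examined in gonadal white fat of young Rap1-deficient mice. Members were chosen by name: mouse genes called Ccl, Cxcl, Ccr, Cxcr or Ackr with a number and at most 1 letter, together with Cx3cl1, Cx3cr1 and Xcl1. RefSeq listed 61 such genes, and 57 of them had at least 1 array probe designed on a transcript of theirs, out of 19752 gene symbols named on the array. They comprised 36 ligands, 17 signalling receptors and 4 atypical receptors, on 68 probes. Expression of the remaining genes, Ccl21c, Ccl21d, Ccl27b and Cxcl11, is not analysed here, although Ccl27b was among the promoters searched. The samples were total RNA from 4 Rap1-/- and 4 wild-type (WT) mice, 10 weeks old, on a mixed background of 90% C57BL6 and 10% 129SV. Rap1-/- mice carried a constitutive whole-body deletion, made with a cre recombinase driven by the EIIa promoter that was then bred out of the colony, and per the study's methods the young fat was from females on standard chow, as were the controls. The age was chosen by the study to look at transcription ahead of obesity.

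Chemokines bind heptahelical receptors on target cells and so guide monocytes, lymphocytes, granulocytes and dendritic cells into tissue. CC ligands such as CCL2 act mainly on monocytes, eosinophils and lymphocytes, whereas CXC ligands include the neutrophil attractants, the interferon-induced T cell attractants and CXCL12, which retains haematopoietic cells. Atypical receptors bind chemokines without the usual G protein signal and remove or transport them. In white fat, monocyte recruitment through CCL2 and its receptor CCR2 is a known feature of obesity, and several chemokines are made by resident macrophages, by the stroma and by the vessels of lean fat.

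Each sample had 1 one-colour Agilent array. All values below are log2 processed signals relative to the 75th percentile of the same array, so levels were not compared between probes. The 75th percentile lay between 302 and 497 intensity units. From 59.7% to 65.2% of the spots of an array exceeded background clearly, and none (0) reached saturation. On 1 probe of Terf2ip, which encodes RAP1, the WT arrays read 0.06 to 0.49 and were above background on 4 of 4 arrays, and the Rap1-/- arrays read -7.58 to -7.13 and were above background on 0 of 4; the other probe of the gene was higher in Rap1-/- (0.84 to 1.06 against -1.49 to -1.27). All 14 adipocyte markers were detected well enough to be tested. So were all 14 skeletal muscle genes, so detection alone does not check the label of white fat. Skeletal muscle genes had a lower mean in Rap1-/- for 13 of 14 genes, with a median difference of -1.31 and 0 below an unadjusted p of 0.05, and varied widely between arrays, with a mean over 14 genes, each centred on its own mean, of -4.59 to 3.23 in Rap1-/- and -0.82 to 1.84 in WT. Each slide held 2 arrays of each genotype, WT at positions 1 and 2 and Rap1-/- at positions 3 and 4 on both, so position on the slide and genotype cannot be told apart. P-values below measure the spread among 4 mice per genotype, and the number of arrays limits the precision.

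Most of the family was detected in this tissue, as were most genes named on the array. Of the 57 genes, 38 were well above background on all 8 arrays. The filter of at least 4 arrays was passed by 43, which were tested: 26 ligands, 13 receptors and 4 atypical receptors. Over the whole array, 14925 of 19752 named genes passed the same filter. No signal well above background was seen on any array for 10 genes: the CCR8 ligand Ccl1, the CCR6 ligand Ccl20, the neutrophil attractants Cxcl2, Cxcl3 and Cxcl5, Cxcl15, Cxcl17, and the receptors Ccr1, Cxcr1 and Cxcr2. The probes of both receptors for the neutrophil attractants were therefore below the detection limit in all 8 mice, as were those of 3 of the 4 listed CXCR2 ligands. Each of the 10 undetected genes had 1 probe. Ackr2 and Ccr8 each had 1 probe above background on 0 arrays and another on all 8. A probe without signal therefore does not show that its gene was not expressed. The number of family genes detected on an array ranged from 41 to 45, at 44, 45, 41 and 44 in Rap1-/- against 42, 43, 42 and 41 in WT.

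**Figure D1:**
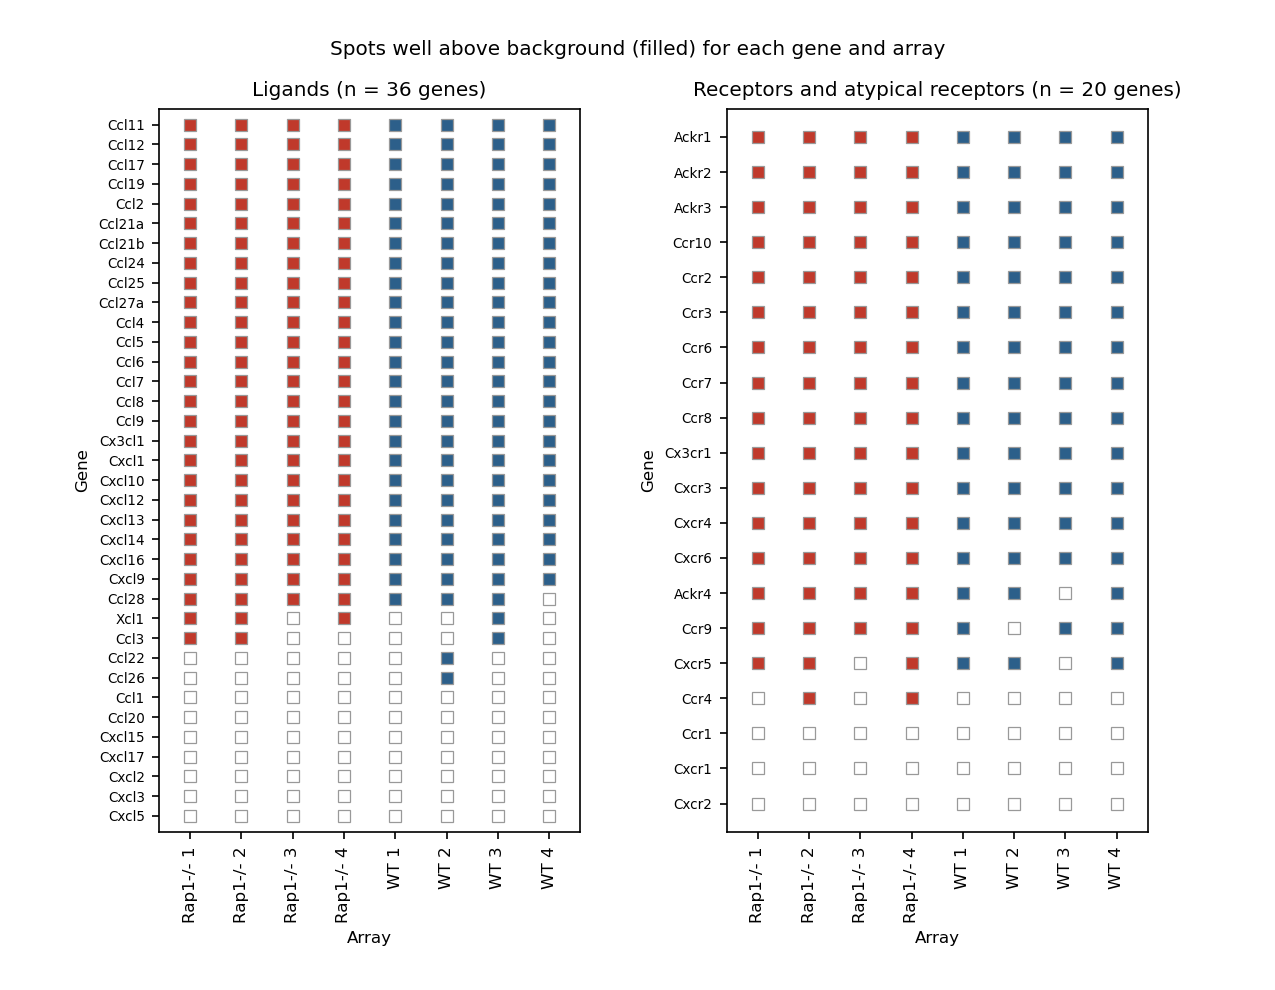
Detection of 56 of the 57 family genes. Each row is a gene, each column an array, and a filled square marks a spot well above background for the gene's most often detected probe (red, Rap1-/-; blue, WT; open, not above background). The upper rows of both panels are filled on all 8 arrays, and the rows of 10 genes at the foot of the panels (7 ligands and 3 receptors) are open throughout.

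A further 4 genes were above background on fewer than 4 arrays and were not tested. Ccr4, the receptor for CCL17 and CCL22, was above background on Rap1-/- arrays 2 and 4 and on 0 WT arrays, with readings of -6.45, -4.95, -5.34 and -4.96 in Rap1-/- against -6.95, -7.06, -5.85 and -6.57 in WT. Its ligand gene Ccl22 was above background on WT array 2 alone, at -3.43, whereas the other 7 arrays read -7.54 to -6.75. Ccl26, a ligand of CCR3, was likewise above background on WT array 2 alone, at -4.66. Ccl3, a CCR1 ligand, was above background on 2 Rap1-/- arrays and 1 WT array. Of the tested genes, 5 were above background on fewer than 8 arrays: Xcl1 on 3 Rap1-/- arrays and 1 WT array, Cxcr5 on 3 of each, and Ackr4, Ccl28 and Ccr9 on 4 Rap1-/- and 3 WT arrays.

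No member of the family differed between genotypes after adjustment over all 25065 features tested. In the limma fit 0 of 43 members passed (smallest Benjamini-Hochberg adjusted p = 0.874), with 0.00399% of all features passing. At an unadjusted p below 0.05 there were 3 members, or 6.98% of those tested, beside 4.98% of all features. Ccl2 and Cxcl14 were the 2 with a higher mean in Rap1-/- (1.67% of all features) and Ccr3 was the 1 with a lower mean (3.31% of all features). The genotypes did not overlap for 0 of 43 members, beside 3.26% of all features. By the two-sided exact permutation test over the 8 arrays, whose smallest possible p is 0.0286, 0 members fell below 0.05. In whole tissue, fewer cells of a type and less RNA per cell cannot be told apart.

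Means were more often higher than lower in Rap1-/-. The mean was higher in Rap1-/- for 30 of 43 members (69.8%) and for 40.1% of all features, and the median difference was 0.12 in the family and -0.04 over all features (log2, Rap1-/- minus WT). The count was 20 of 26 for ligands, with a median of 0.29. It was 6 of 13 for receptors, with a median of -0.02, and 4 of 4 for atypical receptors, with a median of 0.24. These medians are descriptions and carry no test, and the shares at an unadjusted p follow the scaling: of the features below 0.05, 418 of 1248 were higher in Rap1-/- here, 1377 of 1466 under E1A scaling and 291 of 1249 after normexp correction. The slides differed: the family median was 0.23 within slide 1, where 30 of 43 members were higher, and -0.01 within slide 2, where 20 were higher. Over all 25065 features, 10125 were higher within slide 1 and 10639 within slide 2. Scaling to the spiked-in E1A controls raised the difference of a typical feature from -0.04 to 0.19 and that of the family to 0.34. With it, 40 of 43 members were higher, beside 21439 of 25065 features. After normexp background correction the family median was 0.03, with 24 of 43 members higher, beside 8310 of 25065 features.

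**Figure D2:**
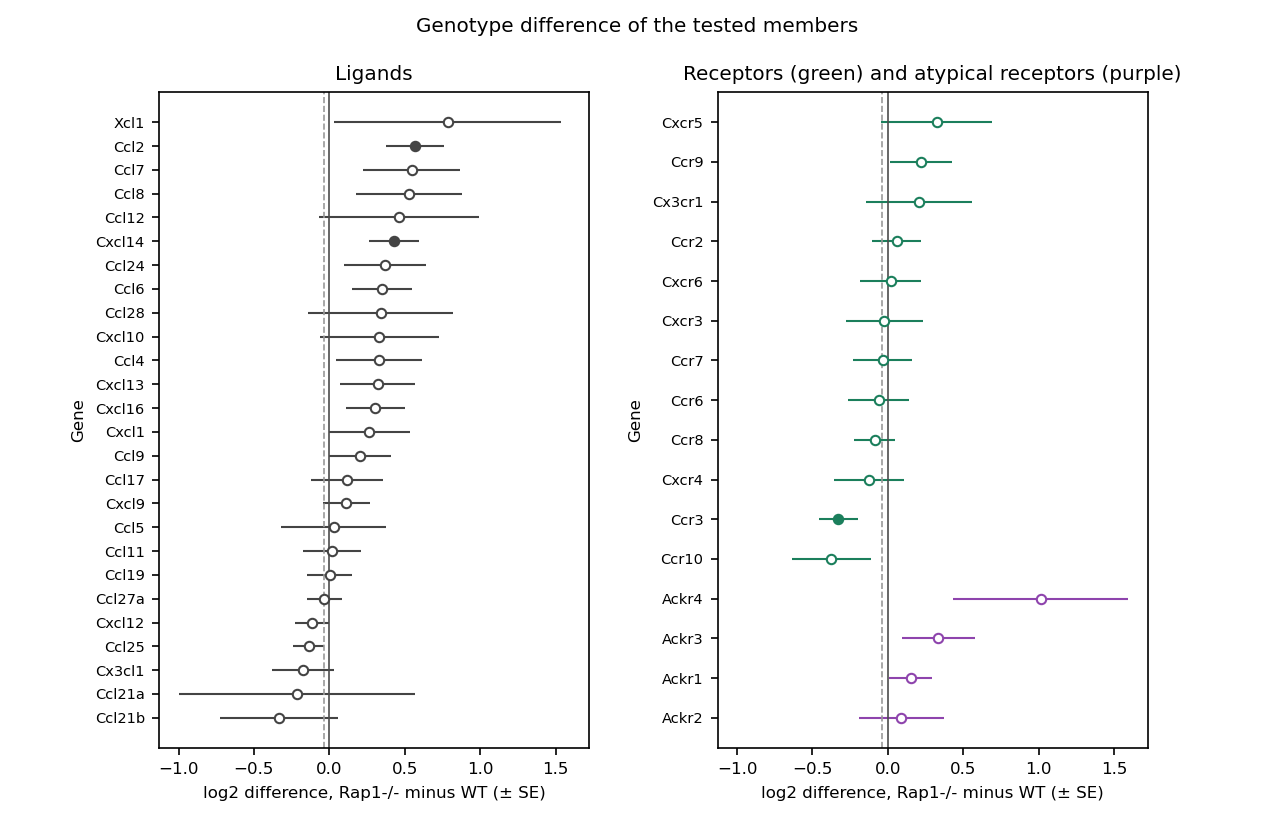
Genotype difference of 42 of the 43 tested members. Points are the log2 difference of Rap1-/- minus WT with its standard error from limma, filled where the unadjusted p is below 0.05, and the dashed line is the median of all 25065 features, at -0.04. The ligands run from -0.33 (Ccl21b) to 0.78 (Xcl1, above background on 1 WT array), the receptors from -0.38 to 0.32 and the atypical receptors from 0.09 to 1.01.

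Marker genes of other cell types were unevenly distributed between the genotypes as well. Macrophage markers had a higher mean in Rap1-/- for 15 of 17 genes (median difference 0.21), and their mean level, with each gene centred on its own mean, ranged from -0.06 to 0.24 in Rap1-/- and from -0.20 to 0.12 in WT. Fibroblast and preadipocyte markers were higher for 12 of 14 genes (median 0.23), at 0.09 to 0.15 in Rap1-/- and -0.49 to 0.30 in WT. Markers of the mesothelium, the cell sheet that covers gonadal fat, were higher for 10 of 10 genes (median 0.63), at 0.12 to 0.42 in Rap1-/- and -1.04 to 0.26 in WT. WT array 3 gave the -1.04, and the other WT arrays read -0.26, 0.26 and -0.19. Within slides 1 and 2 the medians were 0.35 and 0.083 for macrophage, 0.096 and 0.37 for fibroblast and preadipocyte, and 0.21 and 1.05 for mesothelium markers. In contrast, adipocyte markers had a lower mean for 12 of 14 genes (median -0.20). Their mean level was -0.179 to 0.0190 in Rap1-/- and 0.0201 to 0.157 in WT. Monocyte and neutrophil markers were lower for 9 of 9 (median -0.18), at -0.35 to 0.11 in Rap1-/- and -0.14 to 0.48 in WT, with Ngp above background on 0 arrays. Those tested were Plac8, S100a8, S100a9, Elane, Mpo, Retnlg, Csf3r, Camp and Lcn2. Ly6c2 and Ly6g had no named probe, and the list does not separate monocytes from neutrophils. Under E1A scaling the medians of the last 2 lists turned to 0.02 for adipocyte and 0.04 for monocyte and neutrophil markers, while those of the first 3 stayed above 0 under every scaling. The adipocyte median also shrank to -0.021 after quantile normalisation (5 of 14 higher) and to -0.015 on the deposited values (6 of 14 higher). T and NK cell markers had a median of 0.06, which was 0.39 within slide 1, -0.32 within slide 2 and -0.05 after normexp correction. The medians of dendritic cells, B cells, lymph node stroma and blood endothelium lay between -0.09 and 0.05. At an unadjusted limma p below 0.05, 5 adipocyte markers and 1 B and plasma cell marker were lower in Rap1-/- (3.31% of all features). Under the same rule 4 mesothelium markers were higher (1.67% of all features). The macrophage, fibroblast and preadipocyte, and monocyte and neutrophil lists had 0. None of these markers passed the adjusted threshold. Their part in the values of the chemokine family was not tested.

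Ccl2 encodes the monocyte chemoattractant protein that acts through CCR2, and it had the smallest p of the family. The Rap1-/- arrays read 0.34, 0.29, -0.0030 and -0.15, and the WT arrays read -0.54, -0.68, -0.65 and 0.07. Of the WT arrays 3 lay below every Rap1-/- array, and WT array 4 lay among the Rap1-/- values, so the genotypes overlapped. The mean was 0.12 ± 0.24 in Rap1-/- against -0.45 ± 0.35 in WT (SD, n = 4 per genotype), a 1.48-fold difference. The log2 difference of 0.57 ± 0.19 (SE) had an unadjusted limma p of 0.0174, an adjusted p of 0.874 and an exact permutation p of 0.0857. It was 0.93 within slide 1 and 0.21 within slide 2. The probe, A_51_P286737, was printed as 10 spots on each array, and the SD between those spots was 0.08 to 0.12, smaller than the SD between mice of either genotype.

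Ccr2, the receptor of CCL2 on monocytes, gave a difference close to 0. Its arrays read 0.44, 0.26, -0.11 and -0.24 in Rap1-/- against 0.02, 0.21, -0.01 and -0.13 in WT, and the log2 difference was 0.06 ± 0.16 (SE), with a 95% interval of -0.31 to 0.43. The values of the genotypes were interleaved.

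The other CCR2 ligand genes lie next to Ccl2. In RefSeq the family members Ccl2, Ccl7, Ccl11, Ccl12 and Ccl8 follow each other in this order on chromosome 11. Of these, Ccl2, Ccl7 and Ccl12 encode ligands of CCR2, and Ccl11 encodes an attractant of eosinophils. Ccl7 read -0.18, 0.36, -0.70 and -0.29 in Rap1-/- against -1.01, -1.32, -0.73 and 0.07 in WT (difference 0.54 ± 0.32). Ccl12 read -1.21, 0.12, -1.09 and -0.39 in Rap1-/- against -2.01, -2.03, -0.27 and -0.10 in WT (0.46 ± 0.53). Ccl8, whose mouse product acts through CCR8, read 2.01, 2.65, 1.69 and 2.22 in Rap1-/- against 0.90, 1.36, 1.64 and 2.57 in WT (0.53 ± 0.35). In these 3 genes WT arrays 1 and 2 were the lowest of the 8 and WT array 4 was among the highest 2. None passed the adjusted threshold (limma, adjusted p = 0.874, 0.907 and 0.878).

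The difference in these neighbours was carried by slide 1. Within slide 1 it was 1.25 for Ccl7, 1.48 for Ccl12 and 1.20 for Ccl8, and within slide 2 it was -0.16, -0.55 and -0.15. Ccl11, the eotaxin gene in the middle of the cluster, read 2.48, 2.00, 2.16 and 1.95 in Rap1-/- against 2.16, 1.99, 1.76 and 2.60 in WT, a difference of 0.02 ± 0.19. Unlike its neighbours on either side, it was near its own mean on WT arrays 1 and 2.

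Over the 8 arrays Ccl7 and Ccl8 had a Pearson r of 0.92 (exact permutation p = 0.00186) and a Spearman rho of 0.95 (p = 0.00114). The r was 0.95 without the 2 arrays farthest from the Ccl7 median, 0.90 within genotypes and 0.93 within slides. For Ccl12 and Ccl8 r was 0.86 (exact permutation p = 0.00804) and rho 0.81 (p = 0.0218), falling to 0.64 without the 2 farthest arrays. Ccl2 and Ccl7 had an r of 0.85 (exact permutation p = 0.0108) and a rho of 0.88 (p = 0.00724), and r was 0.80 without the 2 farthest arrays. These were picked from all 903 pairs of tested members, of which 0 passed after Benjamini-Hochberg adjustment (the adjusted p of these r values was 0.262, 0.434 and 0.464). Genes of one array share its RNA and its scaling.

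**Figure D3:**
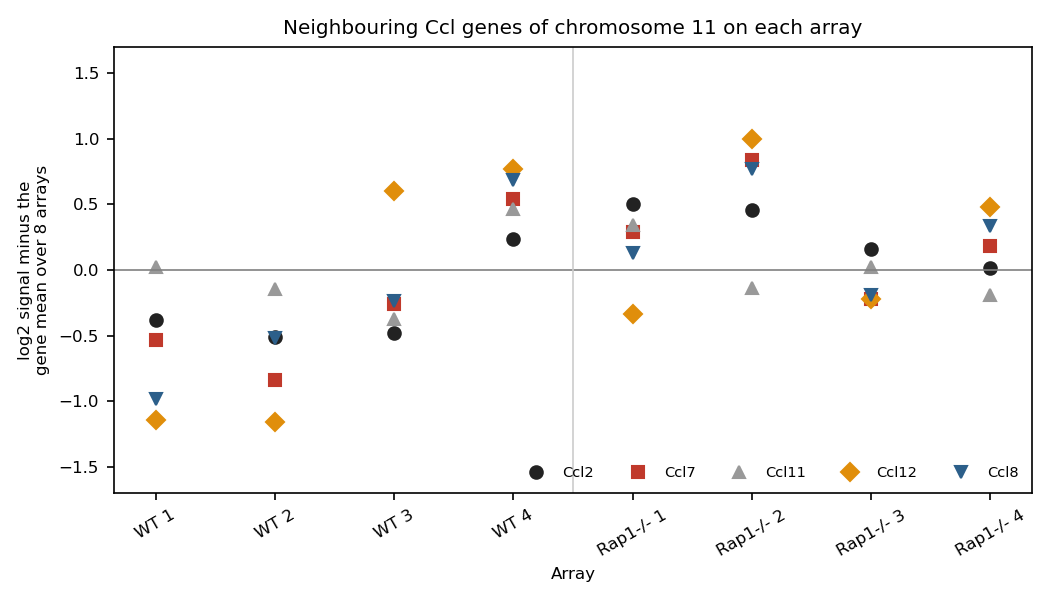
Array pattern of 5 neighbouring ligand genes of chromosome 11. The y axis is the log2 signal minus the gene's mean over the 8 arrays, and the x axis the arrays by genotype. Ccl7, Ccl8 and Ccl12 lie lowest on WT arrays 1 and 2 and high on WT array 4 and Rap1-/- array 2, whereas Ccl11 (grey triangles) lies near its mean on WT arrays 1 and 2.

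The sequences upstream of Ccl12 and Ccl8 are shown because, among these neighbours, only they had a promoter sequence available. None was available for Ccl2, Ccl7 and Ccl11, which are therefore also absent from the promoter search below. Both sequences are the 200 bases before the start site, from RefSeq on GRCm38.p6, on the plus strand. They lie at chr11:82101645-82101844 for Ccl12 and chr11:82114985-82115184 for Ccl8. Capitals mark the letters TATAAA, which begin 31 bases before the start site of Ccl12 and 32 bases before that of Ccl8.
Ccl12: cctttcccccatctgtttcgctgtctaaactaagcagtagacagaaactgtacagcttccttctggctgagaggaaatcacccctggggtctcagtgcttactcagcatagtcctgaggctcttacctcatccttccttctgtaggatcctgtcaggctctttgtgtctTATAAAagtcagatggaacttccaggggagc
Ccl8: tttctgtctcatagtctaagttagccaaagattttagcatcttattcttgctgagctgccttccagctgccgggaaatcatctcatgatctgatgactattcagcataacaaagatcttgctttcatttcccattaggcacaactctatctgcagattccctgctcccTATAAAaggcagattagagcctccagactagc
Set base by base without gaps, 76 of the 200 bases were identical (38.0%), against 24.5% and 25.5% for Ccl12 and Ccl8 with the same stretch of Cxcl14.

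Across the family, 52 promoters of 45 genes were available, each searched on both strands over the 250 bases before the start site. TATAAA was found in 25.0% of family promoters and in 12.4% of all 32851 promoters. The telomeric repeat TTAGGG, which shelterin covers at chromosome ends, was found in 1 family promoter, that of Cxcl2 (1.92%, beside 9.32% of all promoters), and its tandem repeat in 0. The AP-1 form TGANTCA was found in 6 of 52 family promoters (11.5%) and in 6.75% of all. A strict NF-kB form was found in 0 family promoters and in 0.14% of all. A looser NF-kB form, with its middle bases left open, was found in 51.9% of family promoters and in 45.8% of all. These shares were not tested. A match describes these letters in this window and not a bound site.

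Ccl4, Ccl5, Ccl6 and Ccl9, inflammatory CC ligands of macrophages and T cells, were detected in every mouse. Ccl6 and Ccl9 encode ligands of CCR1. For Ccl6 the arrays read 4.07, 4.26, 3.53 and 3.86 in Rap1-/- against 3.65, 3.95, 3.18 and 3.53 in WT, a difference of 0.35 ± 0.20. For Ccl9 the difference was 0.20 ± 0.20. The genotypes overlapped in both genes, and the Ccl6 difference was of similar size on the slides, at 0.36 and 0.34. The macrophage and lymphocyte product Ccl4 differed by 0.33 ± 0.29, with 0.94 within slide 1 and -0.28 within slide 2. Ccl5, made by T cells, differed by 0.03 ± 0.35. Ccr1 itself was not above background on any array.

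Ccr3, the eotaxin receptor that marks eosinophils, was the receptor with the smallest p. The Rap1-/- arrays read -4.14, -4.26, -4.43 and -4.01 and the WT arrays -3.71, -3.96, -3.73 and -4.12, all of them well above background. Values of 3 Rap1-/- arrays lay below every WT array, and Rap1-/- array 4 lay above WT array 4. The difference of -0.33 ± 0.13 (SE), 1.26-fold, had an unadjusted limma p of 0.0354, an adjusted p of 0.874 and an exact permutation p of 0.0571, and it was -0.36 and -0.29 within the slides. It was -0.10 under E1A scaling and -0.14 on the deposited values, and its unadjusted p exceeded 0.05 in both, under median scaling, quantile normalisation, trended robust variance and the replicate block, and without Rap1-/- array 2 or 3 or WT array 1 or 3. Of its ligand genes, Ccl11 differed by 0.02, as given above, and Ccl24, which encodes eotaxin 2, by 0.37 ± 0.27, a higher mean in Rap1-/- (limma, adjusted p = 0.880). Among 10 mast cell and eosinophil markers, 7 were tested, 4 of them higher in Rap1-/- with a median of 0.02. The list mean ranged from -0.29 to 0.24 in Rap1-/- and from -0.23 to 0.10 in WT. Of the untested markers, Ms4a2 and Epx, a granule protein of eosinophils, were above background on 0 arrays. Siglecf, also untested, was above background on 3 Rap1-/- arrays and 0 WT arrays.

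Ccl21a, a ligand of the lymphocyte homing receptor CCR7, had the widest range over the 8 arrays of the 43 members. Expressed by lymphatic vessels and lymphoid stroma, it read 2.32, 3.03, 1.02 and 2.02 in Rap1-/- against 1.87, 4.40, 2.48 and 0.50 in WT. WT arrays 2 and 4 were the highest and the lowest of the 8, and the difference between genotypes was -0.22 ± 0.78. Ccl21b was also highest on WT array 2, at 4.85, and lowest on Rap1-/- array 3, at 2.87, with a difference of -0.33 ± 0.39 that turned to 0.04 without WT array 2. The Ccl21 genes are near-identical copies, as are the Ccl27 genes, and Ccl19 has copies as well, so a probe cannot be assigned to 1 copy with certainty. Ccl19 differed by 0.0016 ± 0.15 and Ccr7 by -0.03 ± 0.19.

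None of the other homeostatic axes passed the test. Ccl25, the CCR9 ligand of thymus and gut, read 0.01, -0.12, 0.03 and 0.03 in Rap1-/- against 0.35, 0.17, -0.01 and -0.01 in WT, a difference of -0.14 ± 0.10. Ccr9 differed by 0.22 ± 0.20. Ccr10, the receptor for the epithelial ligands CCL27 and CCL28, read -3.62, -3.10, -2.97 and -2.99 in Rap1-/- against -3.01, -3.37, -2.62 and -2.18 in WT, and its difference was -0.38 ± 0.26. The highest 2 values of Ccr10 were WT arrays on slide 2, and the difference was -0.17 without WT array 4, -0.23 without Rap1-/- array 1, -0.57 without WT array 2 and -0.15 under E1A scaling. Ccl27a differed by -0.03 ± 0.12 and Ccl28 by 0.34 ± 0.48. Among the 4 kept probes of Ccl27a, differences ran from -0.11 to 0.20, so they did not share a sign.

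Ccr6, a receptor of helper T cells, differed by -0.06 ± 0.20, and its ligand gene Ccl20 was not detected. Ccr8 read -3.31, -2.94, -2.94 and -2.76 in Rap1-/- against -2.88, -3.13, -2.82 and -2.78 in WT, a difference of -0.09 ± 0.14. Ccl17, a CCR4 ligand of dendritic cells, differed by 0.12 ± 0.24. For each of these the interval of the difference spanned 0, which does not show equal levels.

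Cxcl14, a chemokine made in fat and epithelium that attracts monocytes and dendritic cells, was the CXC ligand with the smallest p. The Rap1-/- arrays read 1.41, 1.35, 1.20 and 1.49, and the WT arrays read 0.59, 1.00, 0.78 and 1.37. As with Ccl2, WT arrays 1, 2 and 3 lay below every Rap1-/- array, and WT array 4 lay within the Rap1-/- range. The mean was 1.36 ± 0.12 in Rap1-/- against 0.93 ± 0.33 in WT (SD, n = 4 per genotype). The difference of 0.43 ± 0.16 (SE), 1.34-fold, had an unadjusted limma p of 0.0314, an adjusted p of 0.874 and an exact permutation p of 0.0857. It was 0.58 within slide 1 and 0.27 within slide 2. The unadjusted p exceeded 0.05 without Rap1-/- array 1, 2 or 4 or WT array 1 or 3.

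Cxcl16, a membrane-anchored ligand and scavenger receptor of macrophages, read 0.02, 0.09, -0.03 and 0.58 in Rap1-/- against -0.62, 0.10, 0.08 and -0.12 in WT, a difference of 0.30 ± 0.20. Its highest value was Rap1-/- array 4 and its lowest WT array 1, and the others lay close together. Its receptor gene Cxcr6, of T cells and NKT cells, differed by 0.02 ± 0.20.

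The interferon-induced ligands of CXCR3 did not share a pattern. Cxcl9 differed by 0.11 ± 0.15 and Cxcl10 by 0.33 ± 0.39, with Rap1-/- arrays 2 and 3 of Cxcl10 at 0.54 and -1.59, the extremes of the 8. Cxcr3 read -1.08, -0.97, -1.43 and -0.75 in Rap1-/- against -1.38, -1.22, -0.29 and -1.25 in WT, and differed by -0.02 ± 0.26. WT array 3 was the highest for this receptor.

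Cxcl12, the stromal ligand that holds haematopoietic cells through CXCR4, was among the least variable members. Its arrays read 5.07, 5.11, 5.17 and 5.25 in Rap1-/- against 5.09, 5.55, 5.22 and 5.20 in WT, a difference of -0.12 ± 0.11, and its second probe differed by 0.05. Cxcr4 read -2.31, -2.75, -2.55 and -3.24 in Rap1-/- against -2.23, -2.35, -2.90 and -2.87 in WT (-0.13 ± 0.23). The signs of Cxcl12 and Cxcr4 turned positive under E1A scaling, at 0.11 and 0.097.

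Of the remaining ligands, Cxcl13, the B cell attractant, differed by 0.32 ± 0.25 and its receptor Cxcr5 by 0.32 ± 0.37. Cxcl1, a neutrophil attractant that acts on CXCR2, differed by 0.27 ± 0.27. Cx3cl1, the membrane-bound fractalkine, read 0.51, -0.14, -0.24 and -0.25 in Rap1-/- against -0.18, 0.26, 0.47 and 0.05 in WT (-0.18 ± 0.21), and its receptor gene Cx3cr1 of monocytes and macrophages differed by 0.21 ± 0.35 on 1 probe and by -0.10 on the other. Xcl1, a product of NK and CD8 T cells, had a difference of 0.78 ± 0.75, with readings from -7.19 to -4.23, and 3 of its 4 WT arrays were not well above background, so its size is uncertain.

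The atypical receptors all had a higher mean in Rap1-/-, and none passed the test. Ackr4, the scavenger of CCL19, CCL21 and CCL25, read -2.28, -2.56, -2.43 and -3.77 in Rap1-/- against -3.27, -2.69, -5.40 and -3.73 in WT. The difference of 1.01 ± 0.58 (SE) had an unadjusted limma p of 0.118 and an exact permutation p of 0.2, and WT array 3, its lowest, was not well above background. Without WT array 3 it was 0.47, and it was 0.26 after normexp correction and 0.39 on the deposited values. Ackr3, which takes up CXCL12, read 2.38, 2.30, 1.94 and 2.29 in Rap1-/- against 1.97, 2.55, 1.33 and 1.73 in WT (0.33 ± 0.24). The difference was 0.082 within slide 1 and 0.59 within slide 2, 0.15 without WT array 3 and 0.55 without WT array 2. Ackr1, the Duffy antigen of venules and red cells, differed by 0.15 ± 0.14. Ackr2, the scavenger of inflammatory CC chemokines, differed by 0.09 ± 0.28.

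**Figure D4:**
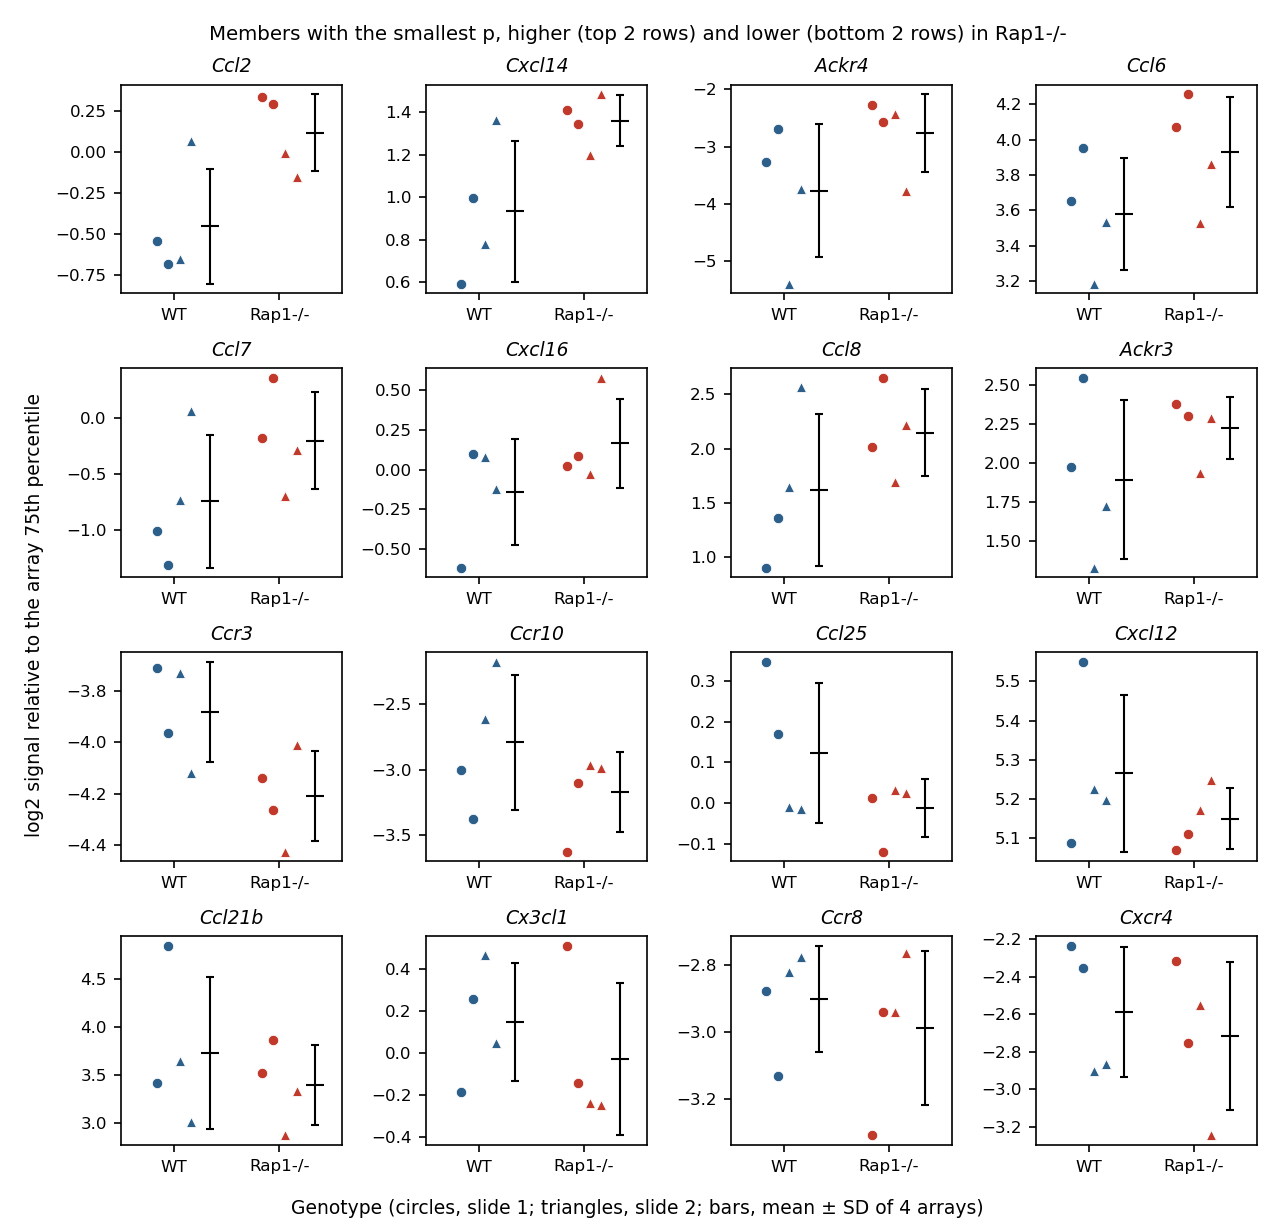
Members with the smallest p in each direction, 8 higher and 8 lower in Rap1-/-. Each point is an array (blue, WT; red, Rap1-/-; circles, slide 1; triangles, slide 2) on the log2 scale relative to the array's 75th percentile, with the mean and SD of 4 arrays beside it and a separate y range in each panel. The genotypes overlap in all 16 panels; in Ccl2 and Cxcl14 the WT array that reaches the Rap1-/- values is WT array 4.

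Ligands and receptors were set side by side over 31 known pairs. Both partners were tested in 20 pairs, the ligand alone in 4, the receptor alone in 3 and neither in 4. Differences of the ligands that act on CCR2 were 0.57, 0.54 and 0.46 while that of Ccr2 was 0.06. For the CCR3 pairs the receptor was lower by 0.33 while the ligands differed by 0.02 and 0.37. In the CXCR5 pair both partners differed by 0.32, with an SE of 0.25 for Cxcl13 and 0.37 for Cxcr5. The Cxcl13 difference was -0.23 within slide 1 and 0.87 within slide 2. That of Cxcr5 ran from -0.045 to 0.57 when an array was left out. Its lowest reading, WT array 3 at -6.08, was not well above background. No difference between partners was tested.

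The spread between arrays was wide in the family. The range over the 8 arrays exceeded 1 log2 unit in 25 of 43 members (58.1%) and in 24.5% of all features, which were not matched for signal. The median range was 1.07 in the family and 0.61 over all features, against a median SE of the genotype difference of 0.23. Within a genotype the range exceeded 1 log2 unit in 12 members among the Rap1-/- arrays and in 17 among the WT arrays.

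Some members varied between arrays along with the marker lists of cell types. The lists are not fully separate. Lyve1 is in both the macrophage and the lymphatic endothelium list, and Thy1 in both the T and NK cell and the fibroblast and preadipocyte list. Ccl21a ran with the lymphatic endothelium markers, of which 4 of 6 were tested (Flt4, Pdpn, Mmrn1 and Lyve1), with Prox1 above background on 0 arrays: r was 0.92 (exact permutation p = 0.00139) and rho 0.83 (p = 0.0154), and r was 0.71 without the 2 farthest arrays. The list read 0.16, 0.49, -0.37 and -0.14 in Rap1-/- against -0.06, 0.88, -0.35 and -0.60 in WT, with WT arrays 2 and 4 at its ends, as for Ccl21a. Among these markers Mmrn1 had the widest range, from -4.59 on WT array 4 to -0.48 on WT array 2. Pdpn ran from 1.74 to 2.67. On WT array 3 Flt4, Pdpn and Lyve1 were each at their lowest, while Mmrn1 (-1.85) and Ccl21a (2.48) were not. The relation with each marker alone was not tested. Ccl5 and Cxcr3 ran with 16 T and NK cell markers, with an r of 0.90 (exact permutation p = 0.00223, rho 0.86, p = 0.0107) and 0.91 (p = 0.00144, rho 0.83, p = 0.0154), and an r of 0.89 and 0.73 without the 2 farthest arrays. Ccl6 ran with 17 macrophage markers, with an r of 0.88 (exact permutation p = 0.00454), a rho of 0.81 (p = 0.0218) and an r of 0.88 without the 2 farthest arrays. Within genotypes these r values were 0.93, 0.91, 0.92 and 0.83, and within slides 0.89, 0.90, 0.91 and 0.84. Out of 559 relations of members with marker lists 0 passed after Benjamini-Hochberg adjustment (adjusted p = 0.258 for each of these r values), so they are descriptions. Ccl2 had an r of 0.56 with the macrophage markers (exact permutation p = 0.147), a rho of 0.52 (p = 0.197) an r of 0.84 without the 2 farthest arrays and an r of 0.21 within genotypes.

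**Figure D5:**
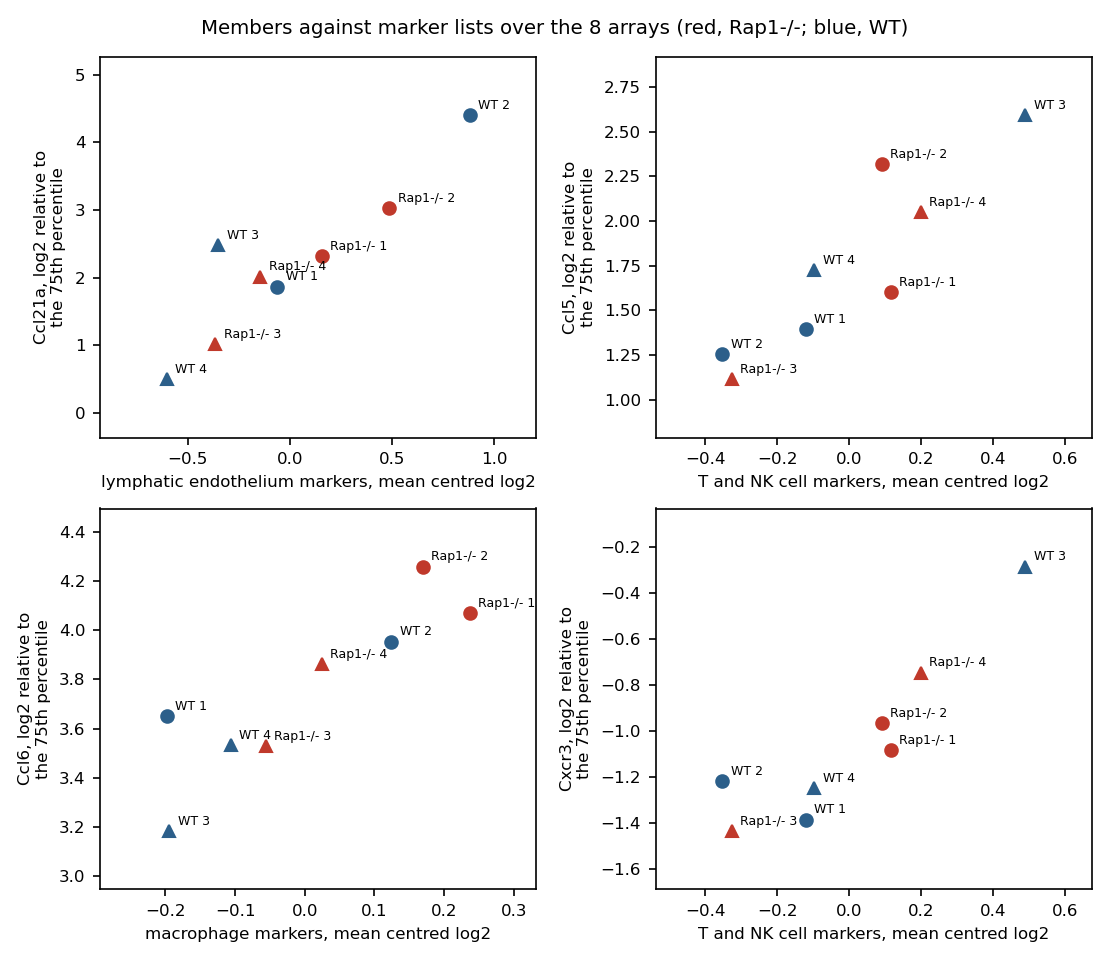
Members against marker lists. Each point is an array (red, Rap1-/-; blue, WT; circles, slide 1; triangles, slide 2); the x axis is the mean of the list's genes, each centred on its own mean, and the y axis the member's log2 signal relative to the array's 75th percentile. Arrays of both genotypes lie along the same rising line, with WT 2 at the upper end for Ccl21a and WT 3 at the upper end for Ccl5 and Cxcr3.

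Genes that act beyond the receptors were read from lists of known pathway members. Of 51 genes of chemokine signalling (G proteins, kinases and adaptors among them) 48 were tested, and 30 were higher in Rap1-/- with a median of 0.03 (0.09 within slide 1 and -0.05 within slide 2). None passed the adjusted threshold and 0 had an unadjusted p below 0.05. The smallest p values among the higher genes belonged to the kinase gene Lyn (0.24 ± 0.11), the Rac activator Dock2 (0.26 ± 0.13) and the receptor kinase Grk5 (0.40 ± 0.19). Among the lower genes, the adaptor Bcar1 differed by -0.12 ± 0.10 and the phospholipase Plcb1 by -0.15 ± 0.14.

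Relatives of the chemokines with other names gave 13 tested genes of 16, 7 higher and 6 lower, with a median of 0.05. Ppbp, the platelet chemokine CXCL7, had a lower mean in Rap1-/- (-0.98 ± 0.36, limma, adjusted p = 0.874) and was above background on 3 Rap1-/- and 4 WT arrays. The peptidase gene Dpp4, whose product trims chemokines, differed by 0.51 ± 0.26, the platelet chemokine Pf4 by 0.30 ± 0.17 and the chemerin gene Rarres2 by 0.35 ± 0.22. Mif, a cytokine that also binds CXCR4, differed by -0.18 ± 0.10 and the CCL18 receptor candidate Pitpnm3 by -0.10 ± 0.16.

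Of 29 genes of the NF-kB pathway and its classic targets 24 were tested, 16 of them higher, with a median of 0.03 that was -0.0013 after normexp correction. Ptgs2, which encodes cyclooxygenase 2, read -4.22, -4.21, -3.34 and -4.21 in Rap1-/- against -5.95, -5.55, -6.67 and -4.32 in WT. Of the WT arrays 3 were not above background, so the fitted difference of 1.63 ± 0.46 (limma, adjusted p = 0.874) is set largely against readings at background and its size is uncertain. Tlr4 and Selp differed by 0.11 ± 0.08 and 0.15 ± 0.13, and the inhibitor Nfkbia, the kinase Chuk and the subunit Rela by -0.19 ± 0.13, -0.10 ± 0.08 and -0.09 ± 0.07. Interferon gamma response genes leaned the other way, with 4 of 19 tested genes higher and a median of -0.17, which was 0.06 within slide 1, -0.26 within slide 2 and 0.06 under E1A scaling. Lower means with the smallest p belonged to Gbp5 (-0.32 ± 0.15), Cd274 (-0.36 ± 0.18) and Irf1 (-0.23 ± 0.12), and higher means to Socs1 (0.26 ± 0.21), Ifngr2 (0.10 ± 0.10) and Irf8 (0.09 ± 0.13). None of these passed the adjusted threshold.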

How the data were processed

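Per the file headers, arrays were quantified by the authors with Feature Extraction 10.7.3.1, another version than the study's methods name, on a design built on mm9. RNA was extracted with Trizol, with RNA integrity numbers of 6.5 to 8.5 per the labels. The deposited scanner files hold linear intensity values, not normalised between arrays, with background and outlier flags of 0 or 1. The value table deposited by the authors holds log2 values; it matched normexp correction (offset 50) followed by quantile normalisation and was used as an alternative.

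Members and gene lists were chosen with earlier results of these data known. Of 62976 spots, 3671 controls were left out and replicate spots without outlier flags were averaged as log2 processed signal minus the array's 75th percentile; 13 of 55681 probes lacked a value. Probes were named through their RefSeq transcripts (GRCm38.p6), which named 26056 (46.8%); 33983 were well above background on at least 4 of 8 arrays, and the brightest kept probe stood for a gene, leaving 25065 features. Genotypes were compared with limma 3.58.1 (R 4.3.3, lmFit and eBayes), adjusting by Benjamini-Hochberg at a threshold of 0.05, and the method was tested on simulated data. Exact permutation tests used all 70 assignments of the arrays, or all 40320 orders for a correlation, in Python 3.11.15. Named with values were up to 8 members per direction by smallest p, known receptor and ligand pairs, members detected in 1 genotype only, and up to 3 genes per direction of each pathway list. Alternatives covered background correction, scaling, filters, probe choice, slide and replicate blocks, the variance model, single slides and leaving out each array. Values of 1 tested receptor and of 1 signalling gene are counted in these totals and are not reported here.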

Additional observations from a re-analysis of the deposited data

Results flagged for a closer look

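Among the 86 sets of 4 arrays (43 members in each genotype), 6 had 1 array far from the other 3 by Dixon's criterion, which chance gives in about 1 in 20 sets. Rap1-/- array 4 was low for Ccl17 (-4.41, the other arrays -3.65 to -3.63) and for Ackr2 (-0.29, the others 0.27 to 0.36). Rap1-/- array 2 was low for Ccl25 (-0.12, the others 0.01 to 0.03), and Rap1-/- array 1 was high for Cx3cl1 (0.51, the others -0.25 to -0.14). In WT, array 2 was high for Ackr1 (0.53, the others 0.09 to 0.15) and array 3 for Cxcr3 (-0.29, the others -1.38 to -1.22).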

How the results depend on the processing

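No member passed the adjusted threshold under any alternative fitted on both slides. Replicate numbers did not pair the mice: deviations of same-numbered arrays correlated at -0.22, -0.13, -0.13 and -0.16, 0 of 8 arrays correlated best with its own number, and with the replicate block the count at an unadjusted p below 0.05 was again 3 and the count called 0. That count was 5 under E1A scaling, 6 without a filter on dim probes and 1 to 7 when an array was left out (1 without Rap1-/- array 2, WT array 1 or WT array 3, 5 without WT array 4 and 7 without WT array 2). The slide block gave 4, with Ccl6 added. The family median of 0.12 became 0.029 without a filter on dim probes, 0.031 after normexp correction, 0.34 under E1A scaling and -0.01 (-0.014) within slide 2, and 0.06 to 0.15 when an array was left out. For the 8 members of smallest p in each direction, 110 of 351 values under an alternative equal the reported one because the setting cannot move the estimate; of the other 241, 229 kept their direction. Under E1A scaling the difference turned to 0.088 for Ccl25, 0.14 for Ccr8, 0.048 for Cx3cl1, 0.11 for Cxcl12 and 0.097 for Cxcr4. Within slide 2 it turned to 0.040 for Ccl25, -0.16 for Ccl7 and -0.15 for Ccl8, and within slide 1 to 0.15 for Cx3cl1. Leaving out an array gave -0.58 to 0.040 for Ccl21b (positive without WT array 2), -0.16 to 0.019 for Ccr8 (without Rap1-/- array 1) and -0.26 to 0.050 for Cxcr4 (without Rap1-/- array 4). The cause was not tested. Normexp used the median spot signal. Signal over background limits Xcl1, Cxcr5, Ackr4, Ccl28 and Ccr9, which were not above background on every array.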
